A study of Mus musculus with 14 samples.

Results

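The amount of RNA pulled down with Igf2bp3 was compared with the amount of RNA present, gene by gene, between Lin28a+ and control muscle stem cells (MuSCs). A gene was a member when it occurred in both the table of Igf2bp3-RIP peaks, whose counts were summed by gene, and the table of input RNA. This gave 3967 of the 16079 genes named in any table of the series, measured in 8 of its 14 libraries. For each gene, the Igf2bp3-RIP to input ratio of Lin28a+ MuSCs was divided by that of control MuSCs. The log2 of this quotient is called the change relative to input, and it is positive where more RNA was pulled down per RNA present in Lin28a+ MuSCs.

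Igf2bp3 belongs to a small family of cytoplasmic RNA-binding proteins (Igf2bp1, Igf2bp2 and Igf2bp3) that recognise mRNAs, including mRNAs carrying N6-methyladenosine (m6A), and are known to protect them from decay. Lin28a is an RNA-binding protein of early embryos that blocks maturation of let-7 microRNAs and also binds mRNAs directly. Both are found in stress granules, the bodies into which untranslated mRNA gathers when translation stalls. In RNA immunoprecipitation (RIP), an antibody recovers a protein with its bound RNA. A transcript can be recovered more because more of it is bound or because the cell holds more of it, and dividing by the input addresses the first of these.

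Each of 4 groups held 2 libraries: control input, Lin28a+ input, control Igf2bp3-RIP and Lin28a+ Igf2bp3-RIP. Lin28a+ MuSCs were sorted from skeletal muscle of Lin28a-CreERT2; LSL-tdTomato mice, in which cells that express Cre from the Lin28a driver carry a red reporter, and were grown in culture. The genotype label of the other cells is Control, without further detail. Neither age nor a stress treatment is given for either group, and no label says that 2 libraries of a group came from separate animals or cultures, so p-values measure only the spread between these libraries. The study's methods speak in general of biological replicates, in a larger number than the libraries of a group here.

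Counts within Igf2bp3-RIP peaks summed to 9215355 and 27592959 in control and to 12617254 and 34142094 in Lin28a+ MuSCs, and deposited input values to between 4842915 and 6220960 per library. The 10 myogenic markers, of which 9 were in the input table, summed to between 11200 and 11800 CPM (counts scaled to library size, here over the whole input table) in control and between 10600 and 10800 in Lin28a+ input. Single markers lay far apart behind these sums, as Megf10 (501 and 506 against 103 and 104 CPM), Myf5 (556 and 587 against 232 and 238) and Cdh15 (1630 and 1760 against 2680 and 2800). The input table held 4 of 8 fibro-adipogenic, 5 of 9 endothelial, 6 of 7 macrophage and 6 of 8 pericyte and smooth muscle markers. Fibro-adipogenic (5.62 to 6.88 against 15.7 to 16.7 CPM, mostly Ly6a with 4.84 and 5.80 against 16.0 and 14.9), endothelial (1.49 to 1.75 against 2.06 to 2.31) and macrophage markers (3.50 to 4.16 against 2.07 to 3.69) were low, with Pdgfra, Vwf and Csf1r under 0.5 CPM in every library. Pericyte and smooth muscle markers summed to 6880 to 7010 CPM in control and 9030 to 9070 in Lin28a+ input, nearly all from Acta2 (6690 and 6830 against 8790 and 8830 CPM), with Myh11 at 0.0576 to 0.102. Of the other members of that list, Notch3 (184 and 181 against 228 and 232 CPM), Pdgfrb (2.19 and 2.14 against 4.53 and 5.23) and Abcc9 (0.808 and 0.753 against 1.20 and 1.66) were higher and Rgs5 (3.0 and 2.64 against 0.232 and 0.243) lower in Lin28a+ input, and the part of such cells in the results was not tested. The Lin28a+ input columns carry names of m6A-RIP libraries in the deposited table, and every RNA change below rests on their being the input. In bulk libraries, fewer cells of a type and less RNA per cell cannot be told apart.

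In edgeR's quasi-likelihood test of the interaction of cells and assay, 43 of the 3967 genes (1.08%) passed a Benjamini-Hochberg adjusted p of 0.05, with 14 higher (0.353%) and 29 lower (0.731%) relative to input in Lin28a+ MuSCs. Among the 29 lower genes, the RNA value was higher in all 29 and passed the threshold in 28. Their median change was 0.98 on the log2 scale in the input and -0.42 in Igf2bp3-RIP. Of the 14 higher genes, the RNA had fallen in 12, and the median change over the 14 was -1.05 in the input and 0.38 in Igf2bp3-RIP. The RNA change was larger in size than the Igf2bp3-RIP change in 35 of the 43, and in 2597 of all 3967 genes. RNA and ratio changed in opposite directions in 41 of the 43 and in 3213 of all genes. Tested alone, Igf2bp3-RIP passed for 11 of 3967 genes (0.277%), 5 of them higher (0.126%) and 6 lower (0.151%), and the input for 2162 (54.5%), with 1077 higher and 1085 lower. Both counts depended on the processing. For Igf2bp3-RIP alone it was 92 with DESeq2, 1 with at least 10 counts in every library, 6 with total counts, 34 and 27 without Lin28a+ replicate 1 and 2, and 26 and 13 without control replicate 1 and 2, and for the input it was 1245 with DESeq2. The 2 input libraries of a group lay very close together, with a common biological coefficient of variation of 0.988% beside 25.3% in Igf2bp3-RIP. The interaction test used a dispersion per gene shared by both assays, with a common value of 19%. Its standard errors (SEs) could therefore fall below those of Igf2bp3-RIP alone, as for Mcm6 (0.15 against 0.22). The SEs and p-values relative to input may thus be too small, and the count of 43 too large. The ratios of all 43 called genes did not overlap between groups, as was also so for 2225 of all 3967 genes (56.1%). The number of calls depended on single libraries. Without any 1 of the 4 input libraries edgeR called 0 genes (492 to 525 at an unadjusted p under 0.05), without control Igf2bp3-RIP replicate 1 or 2 it called 89 or 130, and without Lin28a+ Igf2bp3-RIP replicate 1 or 2 it called 572 or 202. With libraries scaled by total counts in place of TMM the split was 32 higher and 13 lower. With the replicate number as a block in the Igf2bp3-RIP libraries, 474 genes passed in Igf2bp3-RIP alone and 1316 relative to input. No label says that these numbers pair the libraries. Where a pulldown is said below not to pass alone, the fit had no such block.

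Peaks did not all lie in the gene they are listed under. Of the peaks in the table, 3772 lay outside the RefSeq span (GRCm38.p6, the assembly of mm10) of the gene named for them, and 3429 of those lay in exactly 1 other gene. No peak lay inside the named gene for 683 of the 3967 genes (17.2%) and for 20 of the 43 called genes (46.5%). A further 6 called genes had peaks both inside and outside, and 17 had every peak inside. For the genes with no peak inside, Pearson's r across genes between the change of Igf2bp3-RIP and that of the named gene's RNA was -0.0251 (n = 683 genes), whereas r was 0.570 over the 3002 genes with every peak inside. Genes share their libraries and are not independent replicates, so these coefficients are descriptions.

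**Figure D1:**
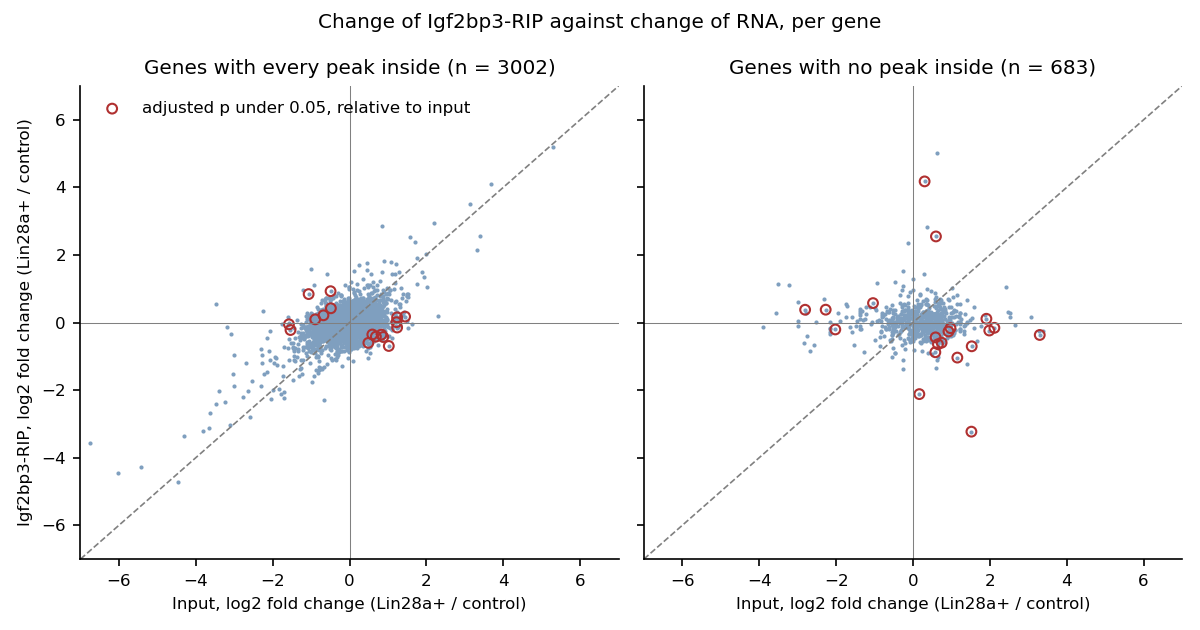
Change of Igf2bp3-RIP (vertical, log2 Lin28a+ over control) against change of input RNA (horizontal, log2) per gene, with equal change on the dashed line and called genes circled. On the left, 3002 genes with every peak inside lie along a rising band (r = 0.570). On the right, 683 genes with no peak inside show no such band (r = -0.0251).

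Mocs1, an enzyme gene of molybdenum cofactor synthesis, had the largest called increase relative to input. Its input, in CPM over the genes tested as in all values from here on, was 16.7 and 17.7 in control and 18.8 and 24.0 in Lin28a+ MuSCs, and its Igf2bp3-RIP 0.992 and 1.13 against 19.6 and 19.6 CPM. The pulldown groups were far apart while the RNA values were close, giving a change relative to input of 3.86 (SE 0.29, edgeR adjusted p = 0.00749). Both of its peaks, within chr17:49457420-49480086 (mm10), lay in the neighbouring Daam2, a formin that acts in Wnt signalling and actin assembly, whose RNA rose by 3.88 on the log2 scale. Counted for Daam2, the change relative to input was 0.26 (SE 0.27, adjusted p = 0.734).

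Pold2, a subunit of the replicative DNA polymerase delta, had the largest called decrease. Its Igf2bp3-RIP was 27.3 and 49.0 CPM in control and 4.33 and 3.86 in Lin28a+ MuSCs, while its input went from 129 and 119 to 366 and 344 CPM. The change relative to input was -4.76 (SE 0.39, edgeR adjusted p = 0.00749), but its single peak (chr11:5871276-5871490) lay in Aebp1. The RNA of Aebp1 changed by -3.27 and the pulldown by -3.24, which left 0.02 (SE 0.48). For Anxa3, a membrane-binding annexin with -2.29 relative to input, the 4 peaks lay in Fras1, a basement membrane protein gene, where an RNA change of -2.14 stood beside a pulldown change of -2.12.

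The RNA of BC034090 rose from 7.64 and 9.46 to 87.0 and 84.3 CPM, with Igf2bp3-RIP at 56.8 and 73.3 against 51.5 and 49.5 CPM. Its 2 peaks lay in Xpr1, a phosphate exporter gene, for which the change relative to input was 0.67 (SE 0.23, edgeR adjusted p = 0.160). Cavin4, a muscle caveola gene, fell in RNA by 2.27 on the log2 scale while its peak lay in Tmeff1, whose RNA change was near 0 (-0.00063). The 8 peaks listed under Olfml2b lay in Atf6, a sensor of unfolded protein in the endoplasmic reticulum, whose change relative to input was 0.39 against -2.28 for Olfml2b. For Mrps28, a mitochondrial ribosomal protein gene, the peak lay in Tpd52, and the change of 1.92 became 1.75 (SE 0.36, adjusted p = 0.0783). Exosc10 (-1.35) had its peak in Mtor, with -0.74, and Adra2a (3.20) its 3 peaks in Shoc2, with a value close to 1.0.

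Over 865 pairs of a listed gene and the other gene in which its outside peaks lie, the pulldown of those peaks had r = 0.469 and a slope of 0.351 with the RNA of the gene they lie in, against r = -0.0253 and a slope of -0.0133 with that of the listed gene. The pulldown change was nearer to the RNA change of the gene the peaks lie in for 520 pairs and nearer to that of the listed gene for 345. Between the RNA changes of the paired genes r was 0.0488.

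**Figure D2:**
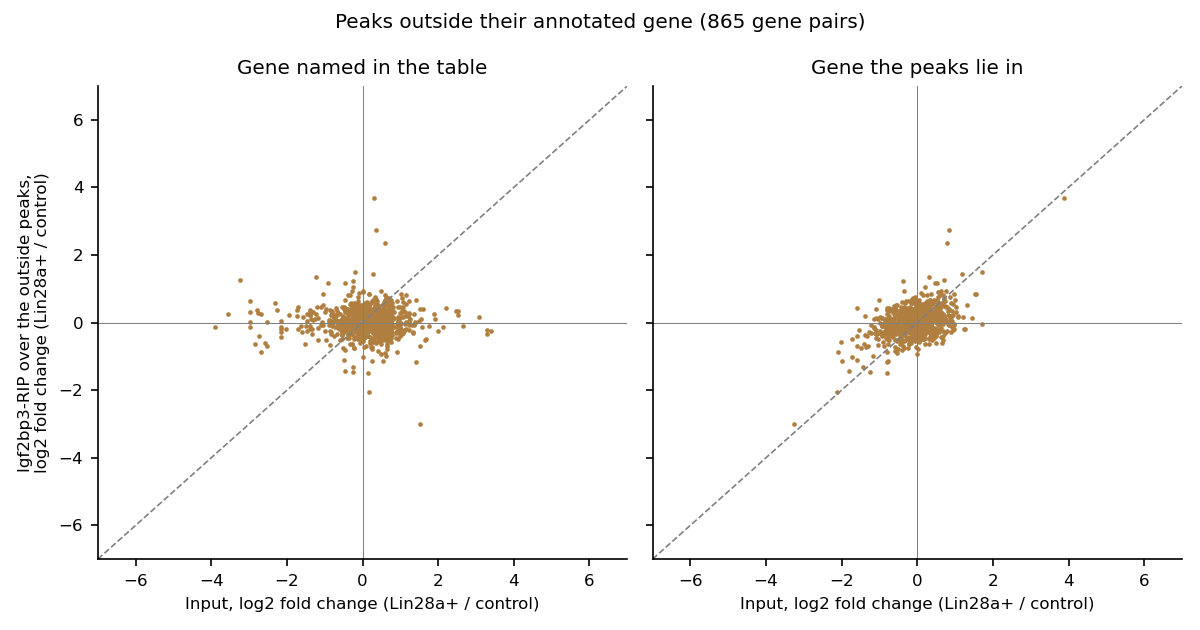
Change of Igf2bp3-RIP over peaks outside their listed gene (vertical, log2) against the change of input RNA (horizontal, log2) of the listed gene on the left and of the gene the peaks lie in on the right, 865 pairs each. The right panel follows the dashed line of equal change in part (slope 0.351), and the left panel is flat (slope -0.0133).

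With only the peaks inside their gene, edgeR called 0 of 3284 genes. The smallest adjusted p was 0.0513, 721 genes were under 0.05 without adjustment, DESeq2 called 17 (0.518%) and limma's voom with quality weights 5 (0.152%). With peaks moved to the gene they lie in, a choice made after the data had been seen, edgeR called 0 of 3784, with 845 under 0.05 without adjustment, and DESeq2 called 21 (0.555%), while Igf2bp3-RIP alone passed for 25 (0.661%). The 23 called genes with a peak inside all kept their direction on those peaks, and 20 of them had an unadjusted p under 0.05. For genes with every peak inside, the counts are the same in both fits and only the scaling and the set of genes differ, so that lower and higher values moved alike, Uhrf1 from -1.27 to -1.33, Taok1 from 1.32 to 1.26 and Cops2 from 0.91 to 0.85. In what follows, the second of a pair of adjusted p-values is from the peaks inside.

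The lower genes with peaks inside are ordered here by what they are known to do, with no test of a theme. Ncaph and Nek2, as also Mars1, Dhx37, Nop2, Ctc1, Srf, Plcg1 and Tmem39a below, were picked after their values were seen. Uhrf1, which carries DNA methylation through replication, had 140 and 149 CPM of input in control and 390 and 399 in Lin28a+ MuSCs, and 39.2 and 36.5 against 40.8 and 44.6 CPM in Igf2bp3-RIP. The RNA groups were clearly apart and the pulldown groups close, and the change relative to input was -1.27 (SE 0.16, edgeR adjusted p = 0.0290, 0.0513 inside). Mcm6, a subunit of the replicative helicase, went from 295 and 287 to 678 and 677 CPM of input with a pulldown of 43.3 and 44.0 against 46.6 and 41.4 CPM. Its RNA rose by 1.22, its pulldown changed by 0.01 (SE 0.22), and the change relative to input was -1.21 (SE 0.15, edgeR adjusted p = 0.0290, 0.0513 inside).

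The condensin I subunits Ncapd2 and Ncaph, which compact mitotic chromosomes, also had more RNA, with pulldown changes that did not pass alone. Ncapd2 input was 113 and 112 CPM in control and 267 and 264 in Lin28a+ MuSCs, with Igf2bp3-RIP at 122 and 135 against 128 and 104 CPM. For Ncaph the input was 73.0 and 69.2 against 166 and 169 CPM, and the pulldown 73.2 and 69.1 against 75.4 and 82.8 CPM. The pulldown of Ncapd2 overlapped between groups and that of Ncaph was slightly above control in both Lin28a+ libraries, while the RNA of both more than doubled, which gave changes relative to input of -1.39 (SE 0.19, edgeR adjusted p = 0.0365, 0.0571 inside) and -1.08 (SE 0.17, edgeR adjusted p = 0.0477, 0.0733 inside). Incenp, the scaffold of the chromosomal passenger complex, changed by -1.43 (SE 0.18) with 2 of its 4 peaks inside, and by -1.30 on those 2. Nek2, a centrosome kinase, had only 1 of 6 peaks inside, and its -1.32 became -0.94 (unadjusted p = 0.223, edgeR). The other 5 lay in Lpgat1.

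Other lower genes with peaks inside had RNA rises under 1 on the log2 scale with pulldown changes below 0, none of which passed alone. They were Mars1, the methionine tRNA synthetase (input 243 and 247 against 435 and 438 CPM, pulldown 37.3 and 31.2 against 28.4 and 25), Dhx37, a helicase of ribosome assembly (change relative to input -1.09), and Nop2, a ribosomal RNA methyltransferase (-1.13, with 3 of 4 peaks in Chd4). Further members were Ctc1 of the telomere-capping CST complex (-1.10), Spata2, an adaptor in inflammatory signalling (-1.30), Srf, the transcription factor of serum response and muscle actin genes (-0.95), and Plcg1, phospholipase C gamma (-1.33). Of the peaks listed under Plcg1, 2 lay in it alone, 3 also in the overlapping gene Zhx3, and 2 in Zhx3 alone. The RNA of Zhx3 changed by -0.886, and reads of the shared peaks cannot be assigned to 1 of these genes. Srf input was 356 and 387 CPM in control and 566 and 559 in Lin28a+ MuSCs, against 103 and 108 and then 81.9 and 83.0 CPM of pulldown. Tmem39a had 1 of 7 peaks inside, the rest lying in Arhgap31, and on that peak its pulldown change went from -0.60 to 0.59 and its change relative to input from -1.5 to -0.36.

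**Figure D3:**
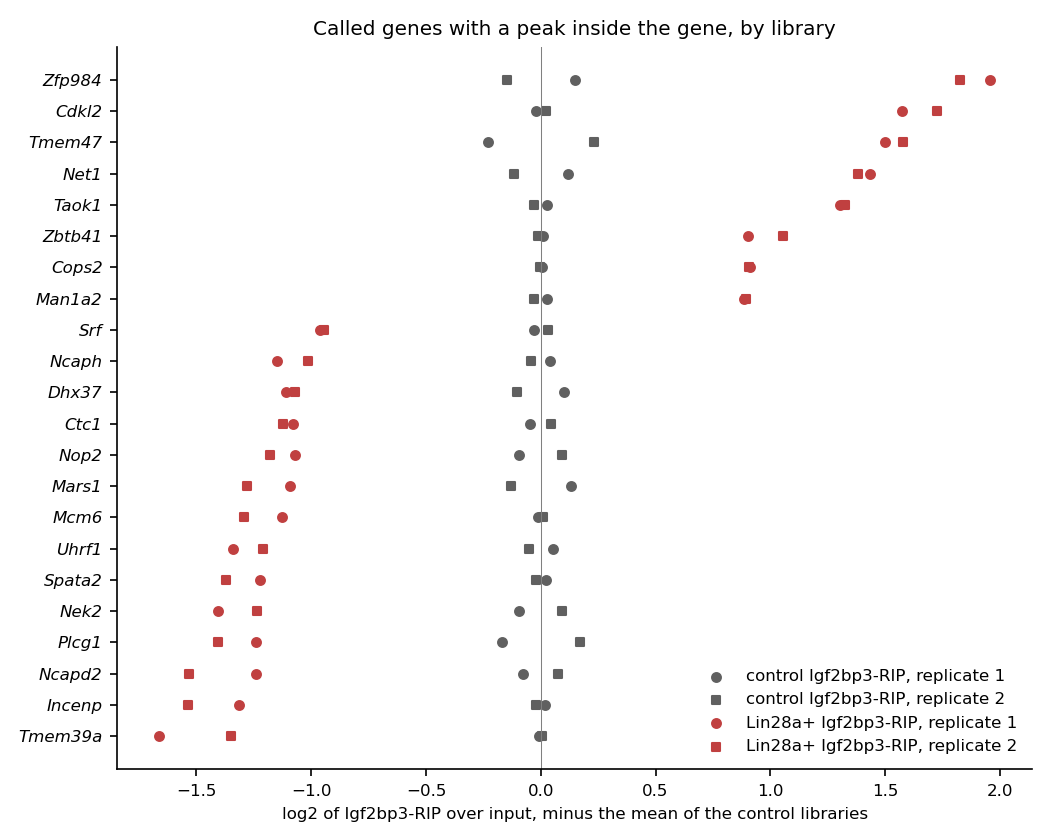
Log2 of Igf2bp3-RIP over input in each Igf2bp3-RIP library (control in grey, Lin28a+ in red, replicate 1 as circles, replicate 2 as squares), minus the mean of the control libraries, for 22 of the called genes with at least 1 peak inside. Lin28a+ points lie to the left for the lower genes, from Srf to Tmem39a, and to the right for the 8 higher ones, and the groups overlap for none of the genes drawn. All peaks listed under a gene are counted, also those outside it, which are most of the peaks of Tmem39a, Nek2, Cdkl2 and Nop2.

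The higher genes were mostly transcripts whose RNA fell while the pulldown changed less. Taok1, a kinase of the MAP3K family that acts on microtubules and stress signalling, had 1107 and 1080 CPM of input in control and 382 and 371 in Lin28a+ MuSCs. Its Igf2bp3-RIP was 974 and 937 against 814 and 826 CPM, so the pulldown was lower by far less than the RNA. The change relative to input was 1.32 (SE 0.16, edgeR adjusted p = 0.0290, 0.0513 inside). All 13 of its peaks (within chr11:77550949-77607811) lay inside, and their separate pulldown changes ranged from -0.38 to -0.12 on the log2 scale, beside an RNA change of -1.54.

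Tmem47, a membrane protein of cell junctions, had 873 and 890 CPM of input against 288 and 304, with 654 and 901 against 730 and 770 CPM in Igf2bp3-RIP. The pulldown of Lin28a+ MuSCs lay between the 2 control values, and the change relative to input was 1.52 (SE 0.24, edgeR adjusted p = 0.0477, 0.0733 inside). Zbtb41, a zinc finger protein gene, had 112 and 114 against 60.6 and 61.2 CPM of input and 208 and 204 against 208 and 232 CPM of pulldown (0.99, SE 0.16). Man1a2, a mannosidase of the Golgi that trims N-glycans, had 7 peaks inside and a change of 0.89 (SE 0.14).

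Cops2, a subunit of the COP9 signalosome that regulates cullin ubiquitin ligases, had less RNA and a pulldown above control, as had Man1a2. Input was 251 and 243 CPM in control and 180 and 172 in Lin28a+ MuSCs, and Igf2bp3-RIP 335 and 332 against 448 and 446 CPM. Each of its 7 peaks was above control, by 0.30 to 0.57 on the log2 scale, and the change relative to input was 0.91 (SE 0.14, edgeR adjusted p = 0.0477, 0.0733 inside). Net1, a guanine nucleotide exchange factor, had a single weak peak with 4.96 and 4.24 against 8.84 and 8.55 CPM and a change of 1.43 (SE 0.17). Zfp984, of a zinc finger family with near-identical copies between which reads may be split, rose relative to input by 1.91 (SE 0.28) on 33.6 and 27.4 against 57.1 and 52.0 CPM of pulldown. Cdkl2 had 3 of its 4 peaks in G3bp2, a stress granule protein gene, and its 1.72 became 0.44 (unadjusted p = 0.463, edgeR) on the peak inside.

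Among the 3284 genes with peaks inside, the pulldown change followed the RNA change with r = 0.566 and a slope of 0.434, under the slope of 1 that equal changes would give. The slope was 0.416 when computed from the libraries numbered 1 and 0.428 from those numbered 2. It was 0.386 over the 1858 genes with a mean input of at least 100 CPM and 0.507 over the 1426 below it. For 2735 of these genes with an m6A-RIP row, the slope of m6A-RIP on the same RNA change was 0.755 (r = 0.856), beside 0.437 (r = 0.582) for Igf2bp3-RIP. The m6A-RIP change was a median-centred difference of mean log2 CPM over all rows listed under a gene. That of Igf2bp3-RIP was an edgeR fit of peaks inside, so the 2 slopes rest on unlike measures. The Lin28a+ m6A-RIP columns share a single name in the deposited table and were taken by group, and names of m6A-RIP libraries also stand on the Lin28a+ input columns, so this comparison rests on both readings of the labels. All of these share the input values, and they are descriptions across genes.

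Most genes lay near 0 on both axes. Where the RNA change lay between 0.5 and 1 on the log2 scale (396 genes), the median pulldown change was 0.09 (quartiles -0.16 and 0.36), and between -1 and -0.5 (439 genes) it was -0.12 (quartiles -0.40 and 0.07). At an RNA change of 1 to 1.5 the median was 0.27 (66 genes) and at 1.5 to 2 it was 0.85 (17 genes). In the 10 genes with an RNA change over 2, the pulldown change had a median of 2.35 beside 2.76 for RNA, and all 10 were above 0. In the 37 genes with an RNA change under -2, it was -1.72 beside -2.72. The change relative to input contains the RNA change with its sign turned, so its decline over these bins is in part arithmetic, whereas the pulldown values are separate measurements.

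**Figure D4:**
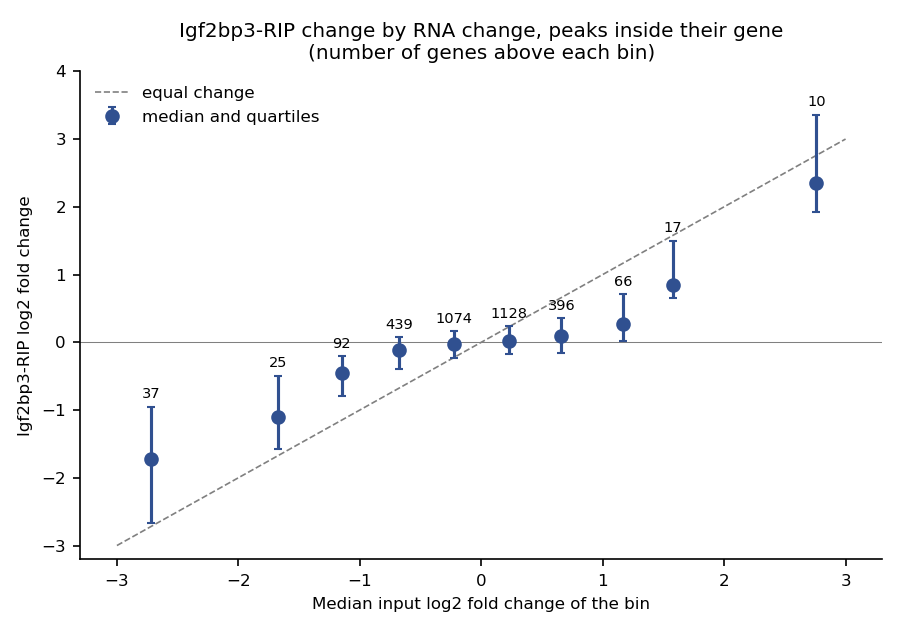
Median Igf2bp3-RIP change (vertical, log2, bars from the lower to the upper quartile of genes) in bins of RNA change (horizontal, log2), for peaks inside their gene, with the number of genes above each bin and equal change as the dashed line. Medians stay between -0.12 and 0.09 for RNA changes within 1 log2 unit of 0 and reach 2.35 and -1.72 in the outermost bins.

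The Igf2bp3-RIP alone passed for 15 genes with peaks inside (0.457% of 3284), 8 higher (0.244%) and 7 lower (0.213%). Those named here were picked after their values were seen, their changes are from the fit of peaks inside, and their levels are CPM over all genes tested. Selp, the adhesion receptor P-selectin, had 6.25 and 5.32 CPM of input in control and 231 and 223 in Lin28a+ MuSCs, and 3.72 and 3.07 against 91.8 and 156 CPM of Igf2bp3-RIP. Its RNA rose by 5.33 and its pulldown by 5.21, leaving -0.14 (SE 0.50) relative to input. Col1a2, a chain of type I collagen, changed by -4.42 in RNA and -4.72 in the pulldown, with input of 156 and 157 against 8.53 and 5.33 CPM. Tfpi, an inhibitor of coagulation, rose by 3.74 and 4.09, and Pmp22, a myelin membrane protein gene, by 3.19 and 3.49.

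Stag2, the X-linked cohesin subunit, fell from 73.7 and 70.4 to 7.68 and 8.88 CPM of input and from 512 and 458 to 75.1 and 44.2 CPM of Igf2bp3-RIP over 17 peaks. The changes of -3.05 and -3.03 left 0.03 (SE 0.43) relative to input. Mcam, a cell adhesion molecule of the immunoglobulin family, had the lowest value relative to input of the 15, with an RNA change of 3.46 and a pulldown change of 2.57 (relative to input -0.86, unadjusted p = 0.0137, edgeR). At the other end stood Gria3, a glutamate receptor subunit, with -5.98 in RNA, -4.46 in the pulldown and 1.75 (SE 1.06) relative to input, followed by Tcerg1l (1.12), Slc8a1 (0.88) and Strbp (0.78).

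Longer genes stood higher relative to input than shorter ones. Over the 1095 genes spanning 71591 to 2270506 bases, the median change relative to input was 0.16, with medians of -0.20 for RNA and -0.05 for Igf2bp3-RIP. Over the 1095 genes of 917 to 30235 bases it was -0.14, with 0.18 for RNA and 0.01 for the pulldown. The 1119 genes with 5 or more peaks inside had a median of 0.21 and the 953 with 1 peak inside -0.18. In both splits the RNA medians were farther apart than the pulldown medians. The slope of pulldown on RNA was 0.571 in the long and 0.300 in the short genes.

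The RNA of Igf2bp3, which encodes the protein pulled down, went from 43.1 and 39.0 to 154 and 147 CPM in the input, a rise of 1.88 (SE 0.066, edgeR adjusted p = 5.53e-07). Its own Igf2bp3-RIP was 17.5 and 16.5 CPM in control and 48.4 and 47.8 in Lin28a+ MuSCs. The pulldown groups did not overlap (1.5, SE 0.23, edgeR adjusted p = 0.0915), and relative to input the change was -0.38 (SE 0.17, adjusted p = 0.235). Both of its peaks (chr6:49105669-49105869 and chr6:49107393-49107614) also lie in the overlapping gene Malsu1, so their reads cannot be assigned to 1 of them. The part of the higher Igf2bp3 level in the other values was not tested.

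Of the DNA repair genes that the study singles out, those given here did not pass relative to input, and the direction of Usp1, Fancm, Bard1 and Fbxw7 turned with at least 1 alternative scaling or left-out library. Usp1, which removes ubiquitin from Fanconi anaemia proteins, had 142 and 143 against 213 and 225 CPM of input and 337 and 232 against 429 and 377 CPM of Igf2bp3-RIP. Its log2 ratios were 1.24 and 0.70 in control and 0.97 and 0.78 in Lin28a+ MuSCs, which overlap (-0.12, SE 0.27, edgeR adjusted p = 0.831). Fancm, a DNA translocase of the same pathway, had 16.7 and 17.1 against 9.38 and 12.4 CPM of input and 49.4 and 53.5 against 35.6 and 36.3 CPM of pulldown (0.12, SE 0.25, adjusted p = 0.894). Both RNA (-0.63) and pulldown (-0.52) of Fancm had negative values that did not pass alone.

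Bard1, the partner of Brca1, had more RNA (0.87, edgeR adjusted p = 3.51e-06) and a pulldown of 44.1 and 60.7 against 63.5 and 116 CPM, with -0.10 (SE 0.41) relative to input. Fbxw7, a ubiquitin ligase subunit that targets cyclin E, had -0.17 in RNA, -0.06 in the pulldown and 0.11 (SE 0.39) relative to input. The SEs of these values relative to input, 0.25 to 0.41, left small changes undetectable. Twist2 had no Igf2bp3-RIP peak and was not tested.

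Of the genes that the study lists qPCR primers for, the 21 other than the Igf2bp, Twist and Tut7 genes were tested. The study may have chosen them on these samples, so they are not independent evidence. None was called, beside 1.08% of all 3967 genes, which is under 1 gene in a list of this size. Of the 21, 12 were above and 9 below 0 relative to input, and the median was 0.11 beside 0.03 over all genes tested (with total counts 18 above, 3 below and 0.239 beside 0.165, 0.00827 and 0.233 without Lin28a+ Igf2bp3-RIP replicate 2 and 1, 0.179 without control replicate 2). Wrn, a helicase, was the highest (0.56, SE 0.25) and Upf1, a helicase of nonsense-mediated decay, the lowest (-0.96, SE 0.55). In the wider list of DNA repair genes, 55 of 78 were tested and 0 called (1.08% over all genes), with a median of -0.10 (0.0139 with total counts, where all genes have 0.165, and -0.142 to -0.0338 with 1 Igf2bp3-RIP library left out, nearest 0 without Lin28a+ replicate 2, then -0.0514 without control replicate 1 and -0.057 without Lin28a+ replicate 1), a median RNA change of 0.11 and a median pulldown change of -0.01. Rev3l, the catalytic subunit of the translesion polymerase zeta, was highest (1.04, SE 0.19, edgeR adjusted p = 0.0597), with 320 and 301 against 286 and 282 CPM of pulldown while its input went from 29.2 and 31.4 to 12.8 and 14.2 CPM. Lig1, a DNA ligase of replication, was lowest (-1.16, SE 0.60).

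The list of cell cycle and mitosis genes had the lowest median of the lists with more than 5 tested genes. Of 57 genes 41 were tested, 2 were called lower (Incenp and Ncapd2) and 0 higher, beside 0.731% and 0.353% of all genes. The median relative to input was -0.39, the median RNA change 0.52, with 25 genes higher and 5 lower in the input test (27.1% and 27.4% over all 3967 genes), and the median pulldown change 0.09. With 1 Igf2bp3-RIP library left out the median relative to input lay between -0.367 and -0.303. Plk1, the polo-like kinase that drives mitotic entry, had 299 and 329 against 954 and 985 CPM of input and 122 and 77.3 against 119 and 74.8 CPM of Igf2bp3-RIP. The pulldown interleaved between groups, and the change was -1.67 (SE 0.39, edgeR adjusted p = 0.0807). At the other end, Ccnd1, cyclin D1, had 2185 and 2149 against 334 and 330 CPM of input and 97.6 and 168 against 45.6 and 70.7 CPM of pulldown (1.52, SE 0.42, adjusted p = 0.103).

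Among transcripts known as Igf2bp targets, 8 of 15 were tested and 0 called (1.08% over all genes, under 1 gene here), with a median of 0.54 relative to input (0.325 without Lin28a+ Igf2bp3-RIP replicate 2), -0.77 in RNA and -0.40 in the pulldown. Hmga2, an embryonic chromatin protein whose mRNA is also a classic let-7 target, was highest: its input was 528 and 497 against 95.5 and 120 CPM and its pulldown 112 and 247 against 77.2 and 380 CPM. The replicates of its pulldown lay farther apart than the groups (2.60, SE 1.01, edgeR adjusted p = 0.183). Ccnd3, cyclin D3, was lowest (-0.52, SE 0.32). H19, an imprinted long non-coding RNA and known Igf2bp target, was not matched to an input gene and was not tested here, and its peak held 5.05% and 6.19% of the peak counts in control and 10.4% and 7.79% in Lin28a+ MuSCs.

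Of the let-7 targets 19 of 34 were tested and 0 called (1.08% over all genes, under 1 gene in each list of this paragraph; median 0.31, RNA -0.28, pulldown 0.05), from Peg10 (-0.67, SE 0.52) to Hmga2. Without Lin28a+ Igf2bp3-RIP replicate 2 that median was 0.0109, without control replicate 1 it was 0.129 and without Lin28a+ replicate 1 0.513. The insulin, PI3K and mTOR list had 22 of 39 tested, 0 called and a median of 0.27 (RNA -0.23, and 0.408 without Lin28a+ Igf2bp3-RIP replicate 2), from Rptor, the mTORC1 scaffold (-0.82, SE 0.25), to Pik3r1, a regulatory subunit of PI3 kinase (0.95, SE 0.24). In the TGF-beta, Wnt and BMP list 28 of 54 were tested and 0 called (median 0.39, RNA -0.12, and 0.227 without control Igf2bp3-RIP replicate 1). Inhba, the activin A subunit, was its highest member at 2.02 (SE 0.48, edgeR adjusted p = 0.0807), with input of 23.6 and 26 against 48.6 and 40.8 CPM and pulldown of 6.08 and 5.64 against 28.8 and 55.7 CPM. Both RNA and pulldown of Inhba were above control, the pulldown by more, but its single peak also lies in the overlapping gene B230303A05Rik, so its reads cannot be assigned to 1 of them. Ctnnb1, beta-catenin, was lowest (-0.59, SE 0.29).

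Of 46 myogenic regulators 25 were tested and 0 called (1.08% over all genes, under 1 gene in each list of this paragraph), with 15 lower and 4 higher in the input test (27.4% and 27.1% over all 3967 genes) and medians of -0.58 in RNA, -0.25 in the pulldown and 0.15 relative to input (-0.00938 without Lin28a+ Igf2bp3-RIP replicate 1). Eya1, a phosphatase and transcriptional coactivator, was highest (1.04, SE 0.34), with a pulldown of 189 and 247 against 317 and 451 CPM. Myod1, the muscle determination factor, was lowest (-0.94, SE 0.38), with an input of 17250 and 17320 against 20500 and 20530 CPM and a pulldown of 935 and 816 against 704 and 383 CPM. The 8 tested sarcomere genes of 45 had 0 calls and a median of 0.01, from Lmod2 (-0.89, no peak inside) to Ttn, titin (0.86, SE 0.32). The 5 tested myogenic markers of 10 had 0 calls and a median of -0.51, with Megf10, a receptor of satellite cells, at 0.78. Without Lin28a+ Igf2bp3-RIP replicate 2 the sarcomere median was -0.12 (0.103 to 0.15 without any other 1 of the Igf2bp3-RIP libraries) and the marker median 0.0288, and the marker median was -0.823 without Lin28a+ replicate 1 and -0.212 without control replicate 1.

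Extracellular matrix genes (27 of 62 tested, 0 called) had a median of 0.06, with -0.48 in RNA and -0.24 in the pulldown, from Col5a1 (-0.79) to Lox, the collagen crosslinking enzyme (1.74, SE 0.54). Large cytoskeletal genes (36 of 41, 0 called) had a median of -0.08, from Lmna, lamin A (-1.27, SE 0.37), to Macf1, a linker of microtubules and actin (0.87, SE 0.56). The 1.08% called over all genes is under 1 gene in each list of this paragraph. For chromatin modifiers (74 of 86, 0 called) the median was -0.03, from Trim28, a corepressor (-1.33, SE 0.34), to Jmjd1c, a demethylase-family protein (1.12, SE 0.38). Cohesin genes (12 of 16, 0 called) had a median of 0.12, with Nipbl, the loader, at 0.87 and Rad21 at -0.44. Translation genes (15 of 52, 0 called) had -0.01, from Eif3b (-0.93, SE 0.18, edgeR adjusted p = 0.0613) to Eif5b (0.51). All 5 of these medians turned sign with a left-out Igf2bp3-RIP library, with ranges of -0.11 to 0.376 (matrix), -0.324 to 0.322 (cytoskeleton, the extremes without Lin28a+ replicate 2 and 1), -0.004 to 0.132 (chromatin), -0.0587 to 0.424 (cohesin) and -0.147 to 0.112 (translation).

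The m6A machinery (15 of 20 tested, 0 called, where 1.08% over all genes is under 1 gene, as in the stress granule list) had a median of -0.13 relative to input (-0.324 to -0.0521 with 1 Igf2bp3-RIP library left out, the extremes without control replicate 2 and Lin28a+ replicate 2, and -0.0557 without control replicate 1). Ythdf3, an m6A reader, was highest (0.73, SE 0.18, edgeR adjusted p = 0.0842) with 239 and 241 against 166 and 174 CPM of input and 594 and 503 against 626 and 661 CPM of pulldown, and Prrc2a, another reader, lowest (-0.73, SE 0.29). In the list of Igf2bp and stress granule proteins (28 of 34, 0 called) the median was -0.02 (-0.0756 to 0.0684 with 1 Igf2bp3-RIP library left out, above 0 without any 1 but control replicate 2). Usp10, a partner of the stress granule protein G3bp1, was lowest (-0.73, SE 0.20), and Fmr1, the fragile X RNA-binding protein, highest (0.70, SE 0.20) with 759 and 687 against 862 and 1020 CPM of pulldown.

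The medians of the lists above count each peak for its listed gene. On the peaks inside, where the median over all genes is 0.02, the values that moved by over 1.5 times were -0.172 for DNA repair, 0.0594 for the qPCR genes, 0.0873 for myogenic regulators, 0.109 for sarcomere genes, 0.00329 for matrix genes, -0.14 for large cytoskeletal genes, -0.0872 for chromatin modifiers, 0.0648 for cohesin, -0.00487 for translation and -0.0742 for the stress granule list. With total counts, beside 0.165 over all genes, the medians of the cytoskeletal (0.0418), chromatin (0.104), stress granule (0.111) and translation lists (0.127) lay above 0.

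**Figure D5:**
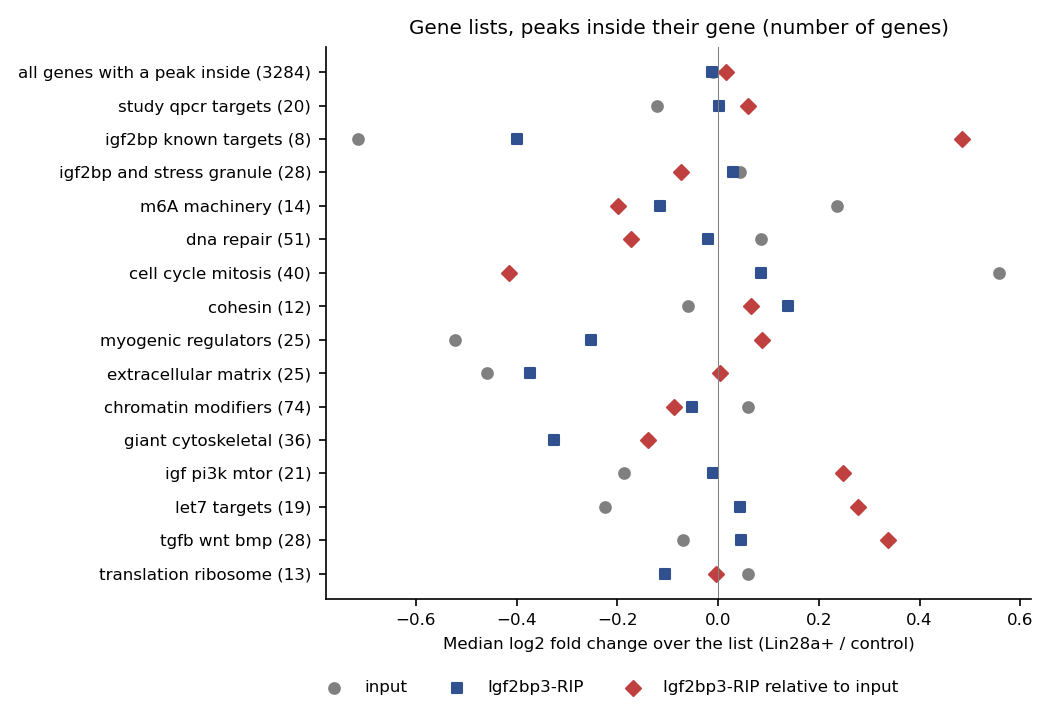
Median log2 change (Lin28a+ over control) of input (grey circles), Igf2bp3-RIP (blue squares) and Igf2bp3-RIP relative to input (red diamonds) for each gene list, computed on peaks inside their gene, with the number of genes in brackets. Sarcomere genes and the marker lists, with 0 to 5 such genes each, are not drawn. Of the lists drawn, the cell cycle list has the highest median RNA (0.56) and the lowest relative to input (-0.42; the myogenic markers, not drawn, have -0.565), and the list of known Igf2bp targets has the highest relative to input (0.48).

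Lin28a-RIP and m6A-RIP peaks, counted for the gene they are listed under whether or not they lie in it, were used to split the genes. Among genes with peaks inside, the 2053 with a Lin28a-RIP peak had a median change relative to input of -0.02 and the 1231 without one 0.07, with quartiles of -0.39 and 0.35 and of -0.27 and 0.42. The pulldown medians were -0.06 and 0.08 and the RNA medians -0.03 and 0.02. The slope of pulldown on RNA was 0.322 with and 0.546 without a Lin28a-RIP peak. For the 2735 genes with an m6A-RIP row the median was 0.01, and for the 549 without one 0.07. No test was made of these splits, because genes are not replicates.

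On the peaks inside, 5 genes passed both in DESeq2 and in voom, and those given here are named for that reason. Among them were Ncapd2, Taok1 and Tmem47, described above, and Cluh, which binds mRNAs of mitochondrial proteins. In CPM over the genes with peaks inside, Cluh had 483 and 496 CPM of input in control and 824 and 827 in Lin28a+ MuSCs, and a pulldown of 180 and 176 against 121 and 116 CPM. Its change relative to input was -1.34 (SE 0.15, DESeq2 adjusted p = 0.00776, edgeR adjusted p = 0.0513). DESeq2 alone added Egr1, an immediate early factor (3.03, SE 0.74), and Etv5, a factor downstream of FGF signalling (2.71, SE 0.59), whose RNA changes were -3.14 and -3.02, beside -0.13 and -0.33 in the pulldown. It also added Bub1b, a spindle checkpoint kinase (-1.46), Idh2, mitochondrial isocitrate dehydrogenase (-1.62), Rangap1 (-1.45), Fbxl22 (-1.73) and Rock2, a kinase of the actin cytoskeleton (1.32). Of the genes described above, it further passed Plk1 (DESeq2 adjusted p = 0.0144), Mcm6 (0.0297), Uhrf1 and Plcg1 (both 0.0316) and Zfp984 (0.0324) on the peaks inside. For Plcg1 these include the 3 peaks shared with Zhx3.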

How the data were processed

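Input RNA and Igf2bp3-RIP were compared in 8 libraries. The Igf2bp3-RIP table deposited by the authors holds raw counts for each peak. The input table deposited by the authors holds values headed as counts for each gene, mostly not whole, which were treated as estimated counts and rounded. How they were made is not given in the sources used here, and the spread of the input rests on them. Of its genes 5.978% had 4 values with a remainder of exactly 0. The submitters' notes name FastQC, HISAT2 2.0.4, MACS2 1.4.3, DESeq2 1.42.0 and the builds GRCh38 and mm10. The counting program, the peak threshold and pooling are not given in the sources used here.

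Peaks were summed by gene and joined to the input by RefSeq symbol (3967 of 4524 genes), and the default low-count filter of edgeR removed none. The interaction of cells and assay was tested with edgeR 4.0.16 in R 4.3.3, with TMM within each assay and a dispersion shared by both assays. DESeq2 1.42.0, limma 3.58.1, other scalings, filters and peak sets, and left-out libraries were alternatives. All changes are relative to the typical gene, since no spike-in counts were used. Log2 ratios per library add a pseudocount of 0.5. The scripts were tested on simulated data. Reads have no stated molecular identifiers, so counting error is a lower limit.

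Genes were named when called with ratios that did not overlap (up to 15 each way, by p), when the study singles them out, or as called, highest or lowest members of a list. Members and lists were chosen with earlier results of these data known. Some genes that met this rule are not reported here.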

Additional observations from a re-analysis of the deposited data

How the results depend on the processing

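The count of 43 genes relative to input was 44 with DESeq2 size factors, 41 with at least 10 counts in every library, 43 without a filter and 45 with total counts (32 higher, 13 lower, median of all genes 0.165 against 0.0276). It was 67 with DESeq2, 124 with voom, 13 with the input as an offset, 13 with the highest peak of each gene, 3 of 141 genes with whole input values, 0 with peaks that overlap their gene and 0 with peaks reassigned to the gene they lie in. Leaving out 1 library gave 0 to 572. It was 0 without any of the 4 input libraries, 89 and 130 without control Igf2bp3-RIP replicate 1 and 2, and 572 and 202 without Lin28a+ Igf2bp3-RIP replicate 1 and 2. The lone library is then assumed to vary like the other groups. For Igf2bp3-RIP alone (11 genes) the count was 92 with DESeq2, 1 with at least 10 counts, 6 with total counts and 13 to 34 with a library left out, and for the input (2162) it was 1245 with DESeq2. The cause of these differences was not tested.

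With the replicate number as a block in the Igf2bp3-RIP libraries, 1316 genes (628 higher, 688 lower) passed relative to input and 474 in Igf2bp3-RIP alone. The numbers are not stated to pair the libraries, and the differences between replicates 2 and 1 correlated across genes between groups (r = 0.681, 2 pairs).

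The 29 called genes named by the rule kept their direction in all 521 values under an alternative. Of these genes 15 have no peak inside and so no value with peaks that overlap their gene or reassigned peaks. Directions turned for Eif5b (-0.0243, range over left-out libraries -0.0243 to 1.35), for Usp1 (0.0139 with total counts, 0.00498 without Lin28a+ Igf2bp3-RIP replicate 2, range -0.363 to 0.176), for Fancm (range -0.0728 to 0.332), for Fbxw7 (-0.0886 without control Igf2bp3-RIP replicate 1, range -0.183 to 0.394) and for Bard1 (0.0175 with total counts, 0.155 without control Igf2bp3-RIP replicate 2, range -0.567 to 0.279). With total counts the median of all genes was 0.165, so the values of Usp1 and Bard1 stayed below that of the typical gene. Of 136 list medians under an alternative, 127 stayed within the spread between replicates, which does not mean that they kept their sign. The others were those of known Igf2bp targets (0.878 with reassigned peaks), chromatin modifiers (0.104 with total counts, -0.0723 with reassigned peaks, -0.0872 with peaks that overlap their gene, -0.004 to 0.132 with a library left out), let-7 targets (0.0109 to 0.513) and myogenic markers (-0.823 to 0.0288). For list medians, the libraries left out were those of Igf2bp3-RIP, and no input library was. With 2 libraries a group, both the spread between libraries and depth limit these values. Reassigned peaks and list medians on peaks that overlap their gene were added after the data had been seen.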
